A study of Mus musculus with 13 samples.

Results

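The 42 genes described here code for the complement proteins and the clotting factors of plasma together with the enzymes that dissolve clots, and they were taken from the 53465 genes of the liver count table by a fixed list of symbols that leaves out the serpin inhibitors. All 42 symbols were found. Liver RNA had been sequenced from 13 male BALB/c mice, 6 WT and 7 Nod2-/-, with 1 library per mouse, to ask which genes differ when Nod2, an intracellular sensor of bacterial cell wall fragments, is absent. Mice of both genotypes had received the carcinogen DMBA once as pups and then a high-fat diet, for 30 weeks according to the labels, which give the same figure as the age (the study's methods give a slightly longer diet), so that no group without carcinogen or on chow enters the comparison. Nod2 was deleted in the whole body, WT and Nod2-/- mice were bred as separate lines and were not littermates, and liver tumors were common in Nod2-/- and less common in WT males treated this way. The labels give every library the same disease state, cancer, and do not say which livers or which pieces of liver held a tumor.

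Complement is a cascade of proteases in blood that marks microbes and damaged cells, calls in phagocytes and punches pores into membranes. Coagulation is a second protease cascade that ends with thrombin cutting fibrinogen into fibrin, and fibrinolysis removes that fibrin again. Hepatocytes secrete most of these proteins into plasma, and several of them, fibrinogen and C3 above all, are known to be made in larger amounts during an acute phase response to inflammation. A smaller set comes mainly from other cells, among them properdin (Cfp) from leukocytes, adipsin (Cfd) from fat cells, and the urokinase receptor (Plaur) from leukocytes and migrating epithelial cells.

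Depth was 14886273 to 20579984 reads counted on genes in WT and 13824780 to 19391431 in Nod2-/- mice. Normalized counts below are counts scaled by edgeR's TMM factors to the mean effective library size, and fold changes are log2 of Nod2-/- over WT from the quasi-likelihood test of edgeR; its p-values were adjusted by the Benjamini-Hochberg method across 13545 genes that passed the expression filter. Nod2 itself had 0 to 4 counts in WT and 1 to 6 in Nod2-/- mice, too few to check the labels. Of 12 listed hepatocyte markers, 11 were found in the count table, and they were present in every library. Their summed level was 87481 to 121472 CPM (counts scaled to library size) in WT and 90224 to 179364 in Nod2-/- mice. Alb alone held 7.51% of all counts and so weighs heavily in that sum. Singly, the 11 had a median log2 fold change of -0.26, with 5 above 0 and 6 below. At an unadjusted p under 0.05, 1 was higher and 2 were lower (12.9% and 10.2% of all genes tested), with 0 past 5% FDR. Some libraries stood apart. Nod2-/- replicate 4 had the highest summed hepatocyte markers, Nod2-/- replicate 7 had summed neutrophil markers of 1027 CPM against 4.23 to 42.8 in the other 12 mice, and WT replicate 3 had summed bile duct and progenitor markers of 286 CPM against 40.2 to 161 in the other WT mice, so values without these mice are given where a result rests on them. Summed lung epithelium markers were 196 and 109 CPM in WT replicates 4 and 2 and 2.74 to 55.2 CPM in the other 11 mice, and all 5 of these markers that were tested were lower in Nod2-/- mice at an unadjusted p under 0.05, with 0 past 5% FDR. Their part in the members' values was not tested. In whole liver, fewer cells of a type and less RNA per cell cannot be told apart.

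None of the 41 members that could be tested passed 5% FDR in edgeR, 0 higher and 0 lower in Nod2-/- mice, where 0.650% of all genes tested were higher and 0.509% lower. At an unadjusted p under 0.05, 6 members were higher (Cfp, Pros1, Vtn, C4bp, Cfi and Fgg), a background of 12.9% of all genes, and 1 was lower (F5), a background of 10.2%. limma's voom with quality weights also called 0 members, where it called 3.83% of genes higher and 2.39% lower. DESeq2 called 2 members higher, Cfp and Pros1, where it called 3.81% of genes higher, and 1 lower, F5, where it called 3.45% lower. The members' log2 fold changes ran from -0.44 to 0.98 with a median of 0.08, against a median of 0.02 over all genes tested, and 24 were above 0 and 17 below. In 0 members did the normalized counts of the genotypes fail to overlap, against 1.44% of all genes tested.

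The intervals say how large a difference could still be hidden. For 20 of the 41 tested members the whole 95% interval of the fold change lay within 1.5-fold either way, and 55.9% of all genes tested met the same limit. These 20 all came from the 35 members made mainly by hepatocytes, and none from the 6 tested members known mainly from other cells, whose standard errors ran from 0.20 to 0.62 against 0.08 to 0.27 for the hepatocyte members.

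**Figure D1:**
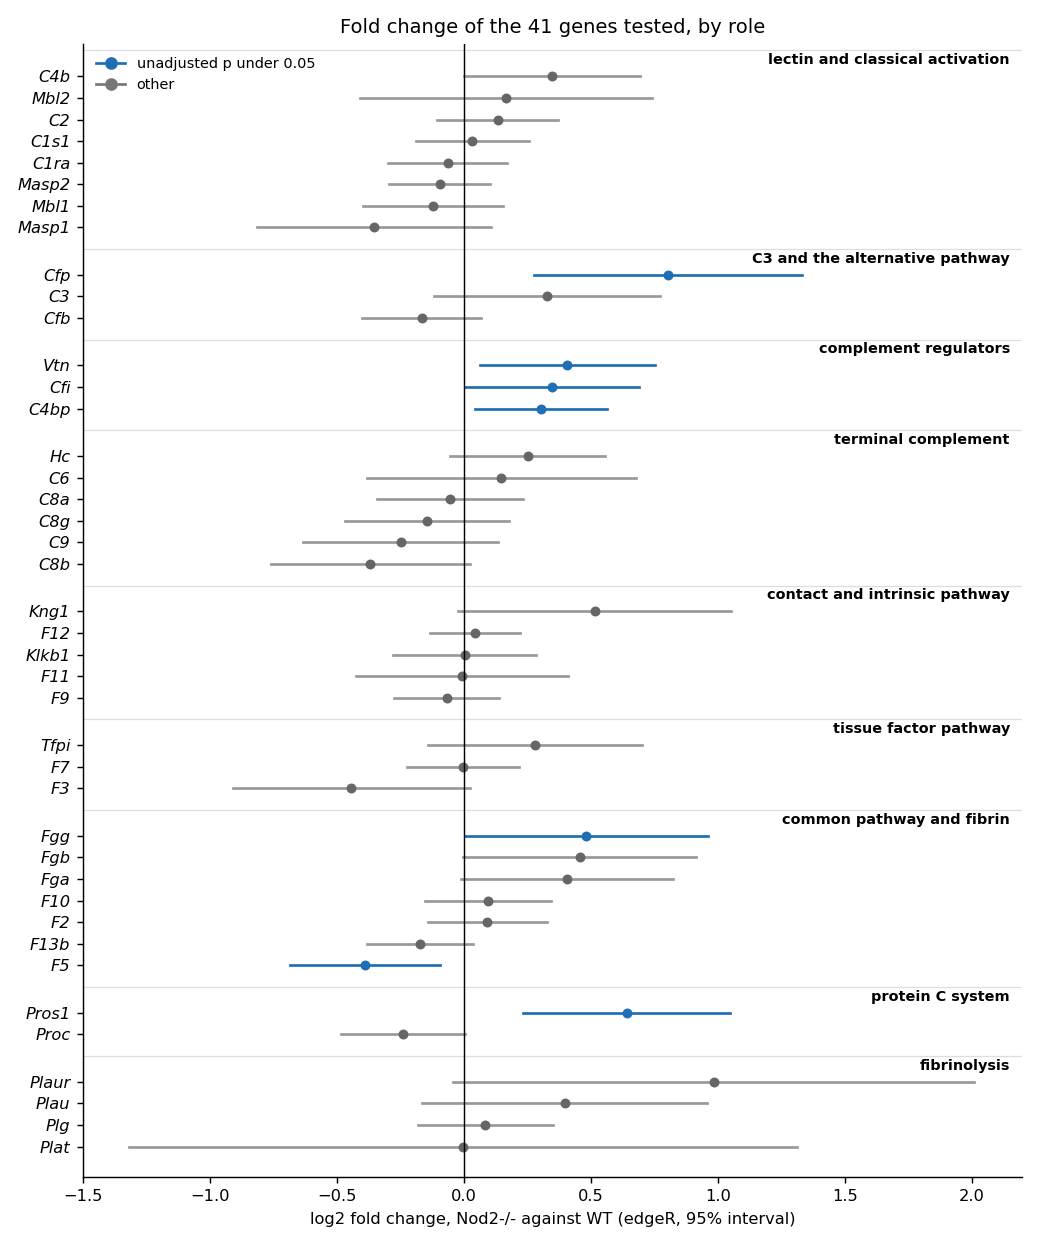
Log2 fold change of Nod2-/- against WT for the 41 genes tested (points, edgeR, x axis) with 95% intervals (lines), in blocks by role, blue where the unadjusted p was under 0.05. The widest intervals belong to Plat and Plaur, and all 3 complement regulators (Vtn, Cfi and C4bp) lie to the right of 0.

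These transcripts covered a wide range of levels. In WT mice Fgg had 1734 ± 447 RPKM (reads per kilobase of exon, scaled to library size; ± SD, n = 6), Fga 1359 ± 272, C3 1227 ± 111 and Fgb 1100 ± 244, and these were the 4 members with a mean over 1000 RPKM. Vtn, which codes for vitronectin, came next with 953 ± 147 RPKM, and together these 5 held 52.8% ± 3.0 (SD, n = 6) of the members' summed RPKM. At the other end, 5 members had WT means under 1 RPKM, which were Tfpi (0.84), Plau (0.62), Plaur (0.24), Cfd (0.19) and Plat (0.17). Among the 41 pairs of neighbours in this order, the WT ranges of 34 overlapped, so most adjacent positions could not be told apart. The gaps without overlap lay between Vtn and Plg, F12 and C4bp, Klkb1 and Cfb, Cfb and C2, Pros1 and Masp1, Cfp and F3, and F3 and Tfpi. In Nod2-/- mice 19 members kept the same rank and no rank moved by more than 5 places. All these levels used the union of exons as length, and some of the order depends on that choice. With the longest transcript instead, Vtn (1110 RPKM) also had a WT mean over 1000 and Tfpi (1.16 RPKM) one over 1. C4bp (181 RPKM) then lay above F12 (135 RPKM), and the WT ranges overlapped for Vtn with Plg and for Cfb with C2.

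**Figure D2:**
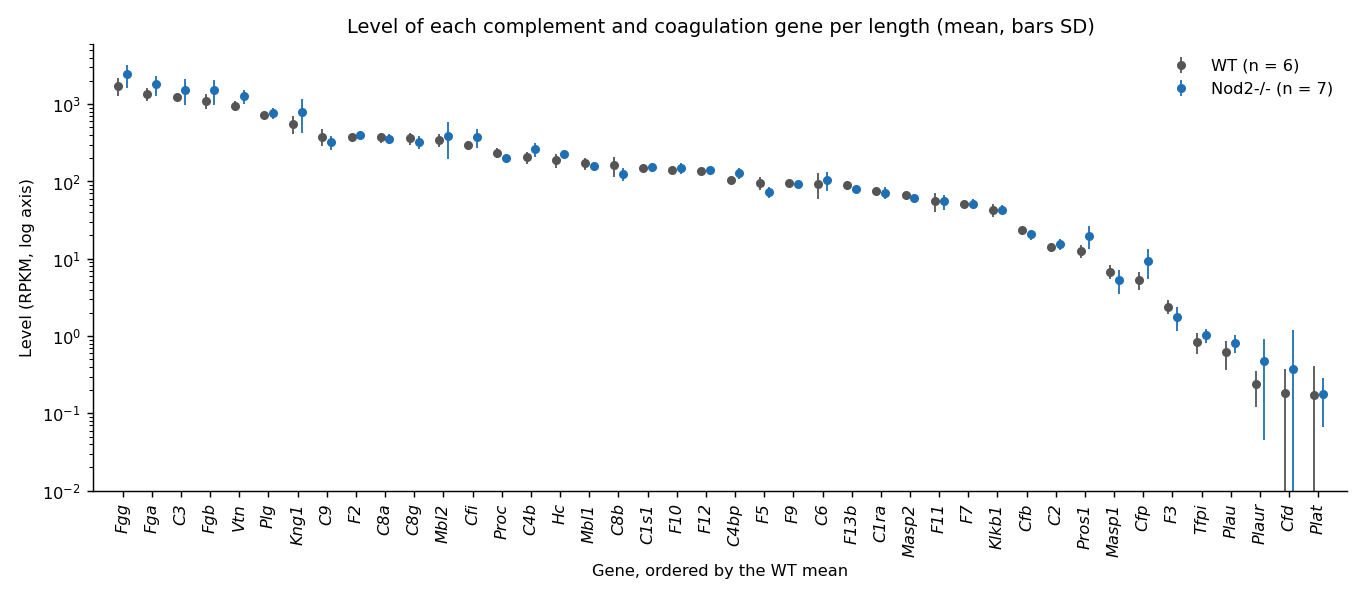
Level of each of the 42 genes in RPKM (y axis, log scale), ordered by the WT mean, with mean (points) and SD (bars) for 6 WT (gray) and 7 Nod2-/- (blue) mice; bars whose lower end would fall below 0 run to the bottom of the axis. The levels fall from 1734 RPKM for Fgg to 0.17 for Plat in WT mice.

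Fibrinogen is a hexamer of paired alpha, beta and gamma chains, and the genes Fga, Fgb and Fgg lie side by side on mouse chromosome 3. Fga (ENSMUSG00000028001.16) spans 83026076 to 83033627, Fgb (ENSMUSG00000033831.5) 83040141 to 83049863 on the minus strand and Fgg (ENSMUSG00000033860.13) 83007724 to 83015049 in GRCm38, a stretch of 42.1 kb in all. Because the 3 transcripts varied together across mice, as given below, the bases just upstream of their starts are shown 5′ to 3′ from the RefSeq promoter table for build GRCm38.p6. The windows are chr3:83025903-83026075 on the plus strand for Fga, chr3:83049864-83050113 on the minus strand for Fgb and chr3:83007474-83007723 on the plus strand for Fgg. The Fga window holds 173 bases and not 250, because the GENCODE start lies 77 bases upstream of the RefSeq start. Capitals mark CTGGGA, the core of an element known from acute phase genes that respond to interleukin 6.
Fga: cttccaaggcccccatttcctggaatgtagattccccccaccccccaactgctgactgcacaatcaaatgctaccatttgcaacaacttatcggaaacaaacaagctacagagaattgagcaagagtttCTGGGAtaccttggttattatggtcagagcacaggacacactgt
Fgb: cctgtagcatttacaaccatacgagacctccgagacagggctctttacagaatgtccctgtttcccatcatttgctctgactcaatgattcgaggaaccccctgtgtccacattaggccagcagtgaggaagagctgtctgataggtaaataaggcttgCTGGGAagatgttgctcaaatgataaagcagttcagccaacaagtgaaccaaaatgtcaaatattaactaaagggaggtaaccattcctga
Fgg: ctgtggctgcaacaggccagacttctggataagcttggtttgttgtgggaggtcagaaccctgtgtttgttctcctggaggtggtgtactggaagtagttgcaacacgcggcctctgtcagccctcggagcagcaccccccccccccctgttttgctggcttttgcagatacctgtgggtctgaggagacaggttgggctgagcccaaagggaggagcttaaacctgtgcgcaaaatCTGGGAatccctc

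Each of the 3 windows held CTGGGA 1 time on the strand shown, 121 bases before the RefSeq start of Fga, 91 before that of Fgb and 13 before that of Fgg. Searched on both strands of the 250 bases upstream of the RefSeq start, CTGGGA was present for 29.9% of 27025 genes and for 15 of the 32 members with an entry, among them C4bp, C8a, F9, F10 and Pros1. The longer form CTGGGAA, which overlaps it, was present for 10.4% of genes and 6 members, Fgb and Fgg included. TTCNNNGAA, the palindrome bound by STAT proteins, was present for 8.13% of genes and for 6 members, among them Fga, Fgb, F9 and Pros1. These matches describe letters in a window and say nothing on whether a protein was bound.

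Fgg had 42070 normalized counts in the lowest WT mouse, 56831 at the median and 86460 in the highest, and 61415, 69454 and 141075 in Nod2-/- mice. Fgb had 57084, 63152 and 95653 in WT and 71718, 82821 and 164037 in Nod2-/- mice. Fga had 55301, 64488 and 92797 in WT and 65250, 82659 and 140236 in Nod2-/- mice. For each chain all 7 Nod2-/- mice were above the WT median, WT replicate 6 was the highest WT mouse and Nod2-/- replicate 4 the highest of all, yet the genotypes overlapped. The log2 fold changes were 0.48 ± 0.22 (SE) for Fgg, 0.46 ± 0.21 for Fgb and 0.41 ± 0.20 for Fga, with adjusted p of 0.214, 0.218 and 0.230, so that no chain passed the threshold. Without Nod2-/- replicate 4 they were 0.31, 0.27 and 0.26. The 3 chains together held 9866 to 16580 CPM in WT and 12068 to 26859 CPM in Nod2-/- mice.

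The 3 chains varied together from mouse to mouse. After removal of the genotype means, Pearson's r over the 13 mice was 0.95 for Fgb with Fgg (rho = 0.83), 0.90 for Fga with Fgb (rho = 0.82) and 0.90 for Fga with Fgg (rho = 0.78), with adjusted permutation p of 0.0002, 0.0011 and 0.0011 for r and 0.0107, 0.0107 and 0.0162 for rho over the 10 pairs examined. Without the 2 mice farthest from the median they were 0.85, 0.71 and 0.71. Within genotypes r ran from 0.74 to 0.94 in the 6 WT mice and from 0.91 to 0.98 in the 7 Nod2-/- mice. These points share libraries and their scaling, and the 3 chains are among the most abundant transcripts of the set.

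**Figure D3:**
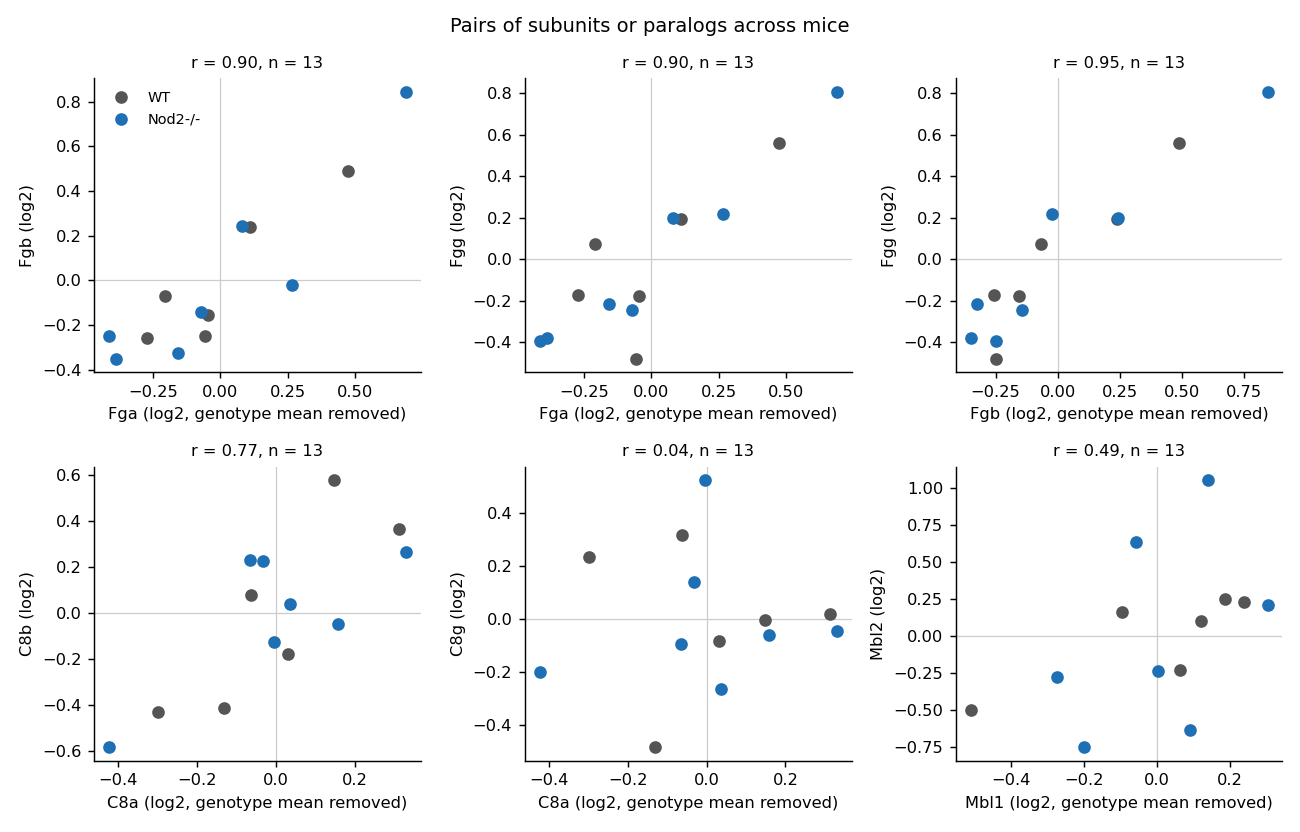
Pairs of transcripts whose products share a complex or a family, as log2 normalized counts with the genotype mean removed (both axes, log2 units), 1 point per mouse, 6 WT in gray and 7 Nod2-/- in blue. The 3 fibrinogen pairs lie closest to a line (r = 0.90 to 0.95). C8a with C8b scatters more (r = 0.77), and C8a with C8g scatters most of these (r = 0.04).

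The other genes of the common pathway did not pass the test either. F2, which codes for prothrombin, the precursor of the protease that cuts fibrinogen, had 27391 normalized counts in the lowest, 28695 in the middle and 30285 in the highest WT mouse, and 25175, 30725 and 37666 in Nod2-/- mice. The Nod2-/- range enclosed that of WT (log2 fold change 0.09 ± 0.11 SE, adjusted p = 0.638), and the 95% interval ran from -0.14 to 0.33. F10, the protease that activates prothrombin, had a log2 fold change of 0.09 ± 0.12, and F13b, the carrier subunit of the enzyme that cross-links fibrin, -0.17 ± 0.10. F5, the cofactor of activated factor X, was the lowest of the group: 8716, 11485 and 15620 normalized counts in WT and 7426, 8908 and 11447 in Nod2-/- mice. All 7 Nod2-/- mice lay below the WT median and 3 lay below every WT mouse, and the log2 fold change was -0.39 ± 0.14 (adjusted p = 0.124 in edgeR, 0.0408 in DESeq2 and 0.115 in voom).

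The contact and intrinsic pathway starts on charged surfaces, where F12 and plasma prekallikrein (Klkb1) activate each other with high molecular weight kininogen (Kng1) as scaffold, and runs through F11 to F9. Of these 5 genes none passed the test. Kng1 (ENSMUSG00000022875.17, chromosome 16, 23057865 to 23082078) had 25251, 25811 and 44041 normalized counts in WT and 29831, 35167 and 87001 in Nod2-/- mice. All 7 Nod2-/- mice exceeded the WT median, but only 2 exceeded WT replicate 3, which was the highest WT mouse. The log2 fold change was 0.52 ± 0.25 (adjusted p = 0.236), and it was 0.24 without Nod2-/- replicate 4 and 0.65 without WT replicate 3. Reads of Kng1 and of its near copy Kng2, which had a log2 fold change of 0.34, may be shared. The other 4 had fold changes near 0, which were 0.05 ± 0.08 for F12, 0.0022 ± 0.13 for Klkb1, -0.01 ± 0.20 for F11 and -0.07 ± 0.10 for F9.

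The tissue factor pathway starts clotting at wounds. F3 (ENSMUSG00000028128.13, chromosome 3, 121723537 to 121735048), which codes for tissue factor, the membrane receptor of factor VII, had 73.5, 104 and 133 normalized counts in WT and 44.8, 72.8 and 114 in Nod2-/- mice. Of the Nod2-/- mice 4 lay below every WT mouse and 3 within the WT range (log2 fold change -0.44 ± 0.22, adjusted p = 0.239). F7, its ligand from hepatocytes, had a log2 fold change of -0.0037 ± 0.10 with a 95% interval of -0.23 to 0.22, and Tfpi, the inhibitor of the pair, had 0.28 ± 0.20, or 0.44 without WT replicate 3, the highest WT mouse at 119 normalized counts.

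In the protein C system, which switches clotting off by cutting the activated forms of factors V and VIII, the enzyme and its cofactor pointed in opposite directions. Pros1 (ENSMUSG00000022912.8, chromosome 16, 62854307 to 62929346), which codes for protein S, the cofactor, had 709, 820 and 1192 normalized counts in WT and 922, 1201 and 2003 in Nod2-/- mice. All 7 Nod2-/- mice were above the WT median and 4 above every WT mouse, with replicates 6 and 7 at 2003 and 1869 and WT replicate 6 the highest WT mouse. The log2 fold change was 0.64 ± 0.19 (adjusted p = 0.0827 in edgeR, 0.0351 in DESeq2 and 0.0713 in voom), and it stayed between 0.52 and 0.75 when any single mouse was left out, with no adjusted p under 0.05 in those edgeR fits. Proc, the precursor of the enzyme itself, had 7676, 9422 and 11191 in WT and 7059, 8306 and 9734 in Nod2-/- mice, with 3 Nod2-/- mice below every WT mouse (log2 fold change -0.24 ± 0.11, adjusted p = 0.224). The mouse-to-mouse correlation of Proc and Pros1 was -0.06 (rho = 0.04, adjusted permutation p = 0.904 and 0.909). The 6 vitamin K-dependent members (F2, F7, F9, F10, Proc and Pros1) had a median log2 fold change of 0.04, 3 above and 3 below 0.

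Fibrinolysis was represented by plasminogen and its activators. Plg, the abundant zymogen from hepatocytes, had a log2 fold change of 0.08 ± 0.12. The activators and the receptor were scarce. Plau (ENSMUSG00000021822.3, chromosome 14, 20836660 to 20843385), which codes for urokinase, had 13.3, 22.0 and 38.0 normalized counts in WT and 23.3, 30.8 and 44.4 in Nod2-/- mice (log2 fold change 0.40 ± 0.26, adjusted p = 0.376). Plaur (ENSMUSG00000046223.10, chromosome 7, 24462484 to 24475968), its receptor, had 4.42, 10.2 and 18.0 in WT and 8.79, 13.7 and 62.7 in Nod2-/- mice. Only replicates 4 and 7 exceeded every WT mouse, and replicate 7 stood alone at 62.7. Plaur had the largest fold change of the set, 0.98 ± 0.48 on the log2 scale (adjusted p = 0.235), which was 0.39 without replicate 7. Plat, the tissue-type activator, had 3.08 to 68.7 normalized counts in WT, where replicate 3 held the maximum, and 4.55 to 38.1 in Nod2-/- mice, and its log2 fold change of -0.0043 carried a standard error of 0.62. Without WT replicate 3 it was 1.19, with an adjusted p of 0.117 in edgeR.

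**Figure D4:**
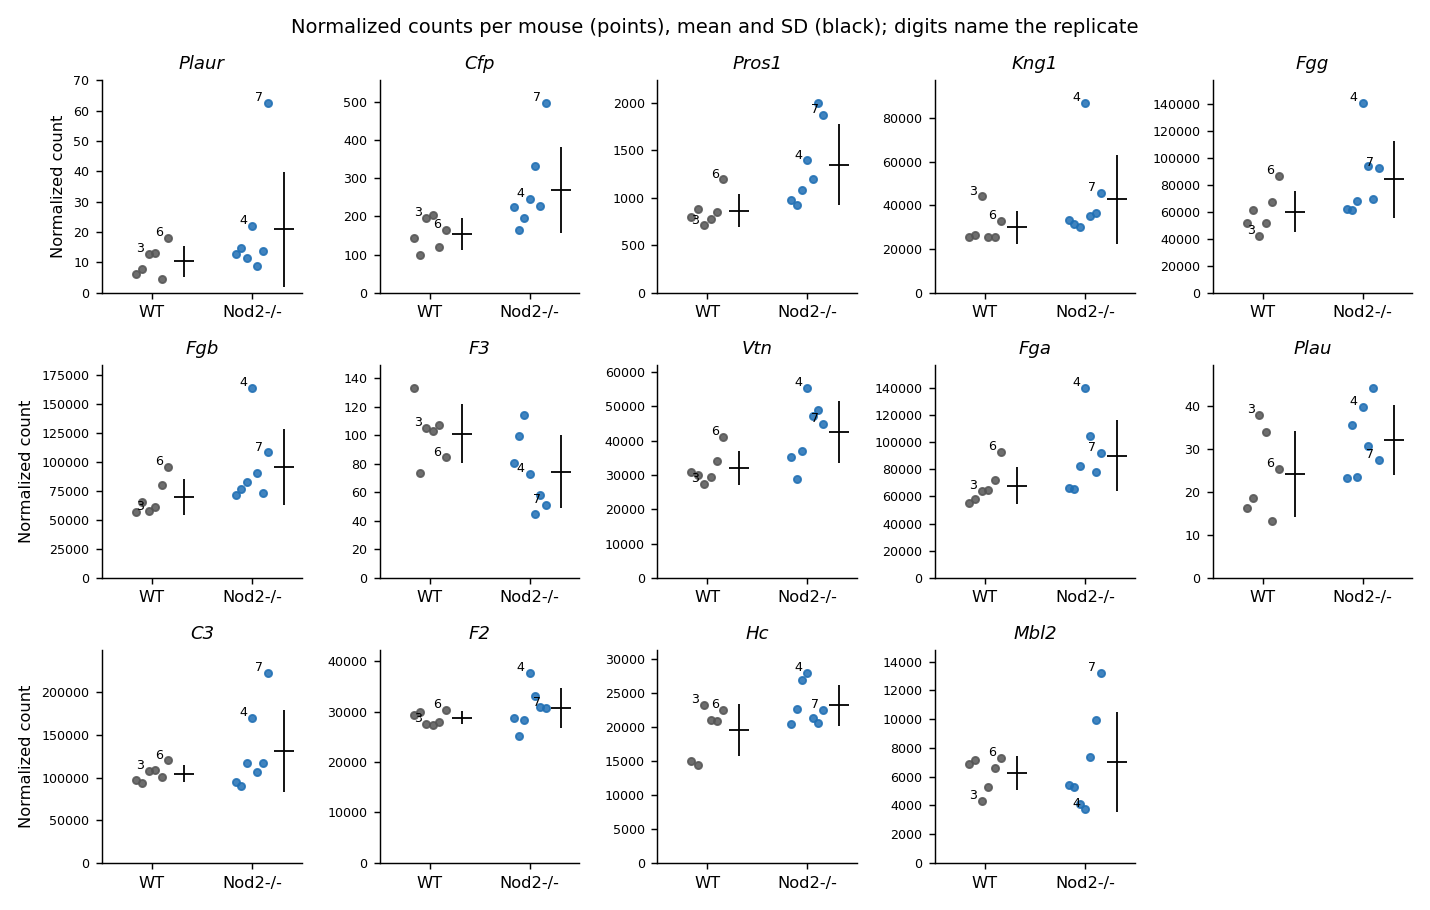
Normalized counts (y axis, linear, from 0) of the 14 members named by rule, 1 point per mouse, WT in gray (n = 6) and Nod2-/- in blue (n = 7), with mean and SD in black and the replicate number beside WT 3 and 6 and Nod2-/- 4 and 7. The genotypes overlap in every panel, and Nod2-/- replicate 4 tops Kng1 and the fibrinogen chains while replicate 7 tops Plaur, Cfp, C3 and Mbl2.

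Complement is started by lectins that bind microbial sugars (Mbl1 and Mbl2, with the proteases Masp1 and Masp2) or by antibody (with the proteases C1ra and C1s1), and both routes cut C4 and C2. None of these 8 genes passed the test, with log2 fold changes of -0.36 to 0.35. Mbl2 (ENSMUSG00000024863.5, chromosome 19, 30232942 to 30239687) had 4331, 6720 and 7286 normalized counts in WT and 3776, 5418 and 13218 in Nod2-/- mice. The Nod2-/- mice spread to both sides, 3 above every WT mouse and 2 below, so that the median was lower and the mean higher than in WT. The log2 fold change was 0.17 ± 0.27 (adjusted p = 0.741), and -0.06 without replicate 7. Its paralog Mbl1 had -0.12 ± 0.13, and the mouse-to-mouse correlation of the paralogs was 0.49 (rho = 0.59, adjusted permutation p = 0.108 and 0.0617). C4b had 5 of 7 Nod2-/- mice above every WT mouse and a log2 fold change of 0.35 ± 0.16 (adjusted p = 0.219), while its near copy C4a, with which reads may be shared, had -0.29 ± 0.22. Masp1 had -0.36 ± 0.22, and Masp2, C1ra, C1s1 and C2 lay between -0.10 and 0.13. C1ra and C1s1, whose products form 1 tetramer, varied by 5.12% and 6.85% (CV) among WT mice, and their correlation over mice was 0.70 (rho = 0.71, adjusted permutation p = 0.0746 and 0.0472). Within genotypes r was 0.09 in WT and 0.78 in Nod2-/- mice.

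C3 is the protein on which all routes meet. C3 (ENSMUSG00000024164.15, chromosome 17, 57203970 to 57228136) had 93873, 104168 and 120091 normalized counts in WT and 90526, 117390 and 222701 in Nod2-/- mice. The WT mice lay close together, with a CV of 9.05%, whereas the Nod2-/- mice had 36.6%, because replicates 7 and 4 reached 222701 and 169759 and the other 5 were at most 117599. The log2 fold change of 0.33 ± 0.21 (adjusted p = 0.359) was 0.15 without replicate 7. In the alternative pathway, Cfb, the protease zymogen, had -0.17 ± 0.11. Cfp (ENSMUSG00000001128.7, chromosome X, 20925454 to 20931555), which codes for properdin, the stabilizer of the alternative convertase, had 98.7, 154 and 205 normalized counts in WT and 166, 228 and 499 in Nod2-/- mice. Of the Nod2-/- mice 5 exceeded every WT mouse, led by replicate 7. Its log2 fold change was 0.80 ± 0.25 (adjusted p = 0.0903 in edgeR, 0.0321 in DESeq2 and 0.0655 in voom), and 0.58 without replicate 7. Cfd, which codes for the protease adipsin, was under the expression filter, and WT replicates 1 to 6 held 5, 1, 1, 7, 2 and 0 raw reads of it. Nod2-/- replicates 1 to 7 held 1, 0, 1, 34, 4, 0 and 1, so that replicate 4 stood alone. Of 8 listed fat cell markers, 3 passed the expression filter. The summed level of the 8 was 1580 to 7917 CPM in WT and 437 to 5231 CPM in Nod2-/- mice, with 495 in replicate 4. Most of that sum was Car3, so it says little on the other fat cell markers. Their part in the Cfd counts was not tested.

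Leukocyte markers were highest in the same mouse as Cfp and Plaur. The summed level of 12 neutrophil markers, among them S100a8 and S100a9, was 4.23 to 9.93 CPM in WT and 6.38 to 1027 CPM in Nod2-/- mice, and 0 of the 12 were at 0 in every mouse. Only 4 of the 12 passed the expression filter. The summed level of 10 macrophage and Kupffer cell markers was 147 to 293 CPM in WT and 170 to 566 CPM in Nod2-/- mice, with replicate 7 again highest. Singly, 8 of these 10 had a log2 fold change above 0 and 2 below, the lowest at -1.29. The share of these cells in the values of Cfp and Plaur was not tested.

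The soluble regulators stop complement on the body's own cells. Cfi cuts C3b and C4b, C4bp is its cofactor and Vtn blocks the pore, and all 3 had fold changes above 0 with unadjusted p under 0.05, as 12.9% of all genes had, and none passed 5% FDR. Vtn (ENSMUSG00000017344.4, chromosome 11, 78499091 to 78502324) had 27375, 30347 and 41112 normalized counts in WT and 28906, 44889 and 55486 in Nod2-/- mice, 4 of which exceeded every WT mouse (log2 fold change 0.41 ± 0.16, adjusted p = 0.154, or 0.33 without replicate 4). C4bp had 10436, 11495 and 13059 in WT and 10752, 14441 and 18764 in Nod2-/- mice, 6 of which exceeded every WT mouse (0.30 ± 0.12, adjusted p = 0.161). Cfi had 9289, 10596 and 12602 in WT and 11579, 12125 and 22293 in Nod2-/- mice, and replicate 4 was far above the rest (0.35 ± 0.16, adjusted p = 0.211, or 0.19 without replicate 4).

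The terminal proteins build the membrane attack pore. Hc (ENSMUSG00000026874.10, chromosome 2, 34983331 to 35061438), the mouse gene for C5, had 14367, 20976 and 23258 normalized counts in WT and 20493, 22530 and 27974 in Nod2-/- mice, and its genotypes differed mainly by WT replicates 1 and 2, at 14997 and 14367 (log2 fold change 0.25 ± 0.14, adjusted p = 0.304). C8b had 4889, 6379 and 9812 in WT and 3464, 5328 and 6236 in Nod2-/- mice, all 7 of them below the WT median (-0.37 ± 0.18, adjusted p = 0.242, or -0.24 without WT replicate 6). C9, which polymerizes into the ring, had -0.25 ± 0.18, and C6, C8a and C8g had 0.15 ± 0.25, -0.05 ± 0.14 and -0.15 ± 0.15. Nod2-/- replicate 7, the mouse with the most C3, was the lowest Nod2-/- mouse for C6, C8a, C8b and C9. The pairs among the chains of C8 gave unlike correlations. C8a and C8b had r = 0.77 over the 13 mice (rho = 0.68, adjusted permutation p = 0.0104 and 0.0468), and r = 0.68 without the 2 farthest mice, but leaving out Nod2-/- replicate 7 gave 0.67 with an adjusted p of 0.0858. C8g, whose product belongs to another protein family and whose gene overlaps Fbxw5, had r = 0.04 with C8a and 0.18 with C8b (rho = 0.12 and 0.23, adjusted permutation p of r 0.904 and 0.749).

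**Figure D5:**
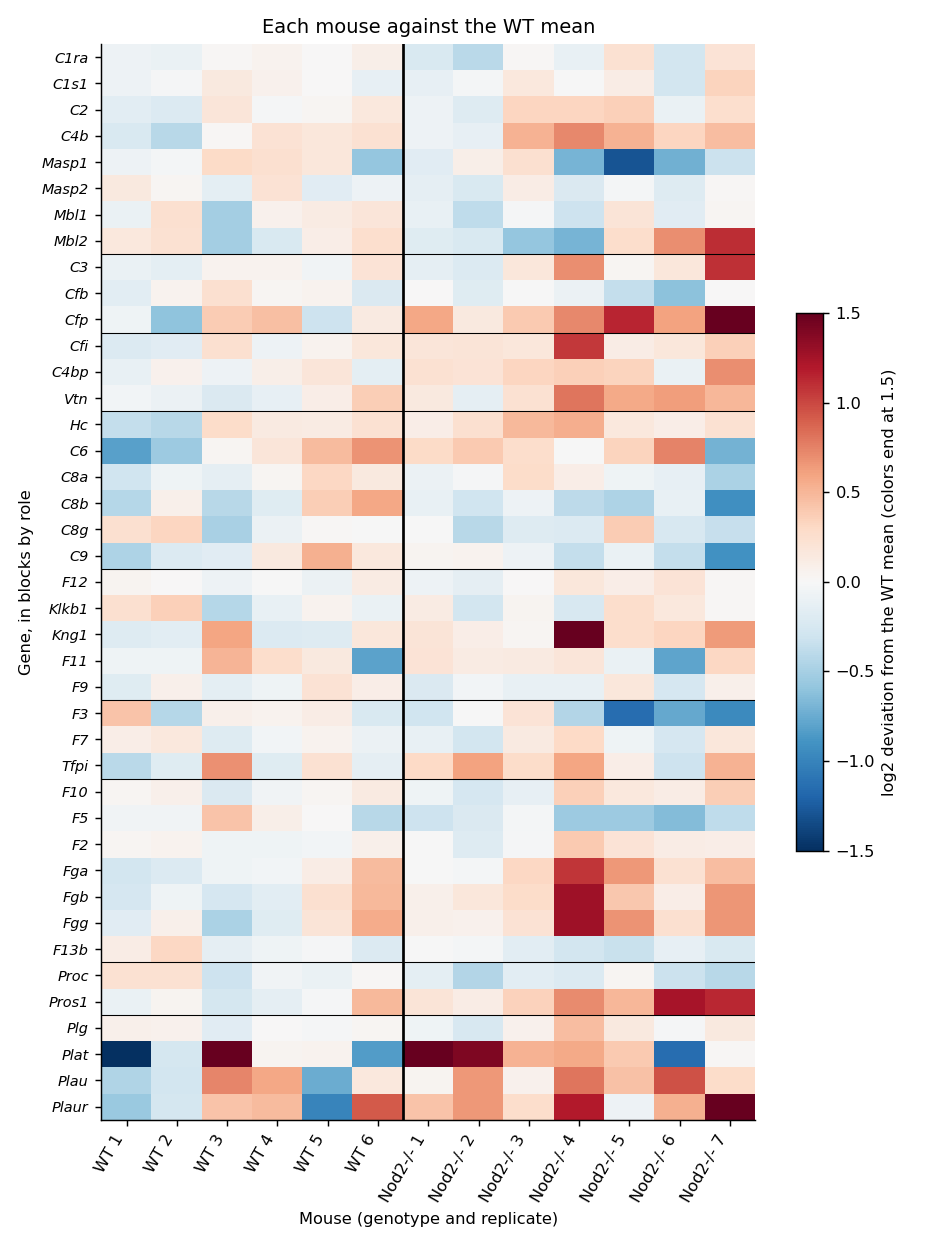
Log2 deviation of each mouse (columns, 6 WT then 7 Nod2-/-) from the WT mean for the 41 tested genes (rows, in blocks by role), red above and blue below, with colors ending at 1.5. Nod2-/- replicates 4 and 7 carry 15 and 10 genes more than 0.5 above the WT mean. WT replicates 1 to 6, which make up that mean, carry 0, 0, 5, 1, 1 and 4.

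Seen by mouse, the deviations were uneven within the Nod2-/- group. Nod2-/- replicate 4 had 15 of the 41 tested members more than 0.5 log2 units above the WT mean, led by Kng1, Fgb and Fgg, and it was the highest Nod2-/- mouse for 11 members. Replicate 7 had 10 such members, led by Plaur, Cfp and Pros1, and 4 more than 0.5 below. Replicates 6 and 5 had 7 and 5 above and 6 and 3 below, replicates 1, 2 and 3 had 2, 4 and 2 above, and replicate 4 had 3 below. WT replicates 1 to 6, from which that mean was taken, had 0, 0, 5, 1, 1 and 4 above. Nod2-/- replicate 2 was the lowest mouse of its group for 19 members, although its median deviation was only -0.03. The members' summed level was 34511 to 45590 CPM in WT and 36604 to 64950 CPM in Nod2-/- mice, with replicate 4 highest. A list of 15 acute phase genes varied in the same mice, with 12673 to 22096 CPM in WT and 15901 to 67918 CPM in Nod2-/- mice, replicate 7 highest at 67918 and replicate 4 next at 44483. Of these 15 genes 0 passed 5% FDR in edgeR, with 0.650% of all genes higher at that threshold, and 12 were higher at an unadjusted p under 0.05, where 12.9% of all genes were. Their part in the members' values was not tested.

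Beyond the members, 61 further complement and coagulation genes were listed, of which 53 were tested and 0 passed 5% FDR in edgeR, with 10 higher and 3 lower at an unadjusted p under 0.05, against backgrounds of 12.9% and 10.2% of all genes tested. Their median log2 fold change was 0.20. DESeq2 called 2 of them higher (Vwf and Plgrkt) and voom 3 (Vwf, Plgrkt and Anxa2), against 3.81% and 3.83% of all genes they tested. Vwf (ENSMUSG00000001930.17, chromosome 6, 125546774 to 125686679), the platelet-binding carrier of factor VIII that endothelial cells make, had 43.1, 64.4 and 103 normalized counts in WT and 80.4, 137 and 279 in Nod2-/- mice. Of the Nod2-/- mice 5 exceeded every WT mouse, and the log2 fold change of 1.32 ± 0.30 had an adjusted p of 0.0512 in edgeR, 0.0019 in DESeq2 and 0.0464 in voom. Summed endothelial markers were 186 to 262 CPM in WT and 206 to 256 CPM in Nod2-/- mice, and these ranges overlap. Singly, the 8 endothelial markers had a median log2 fold change of 0.13, with 7 above 0 and 1 below. Of these, 2 were higher at an unadjusted p under 0.05, where 12.9% of all genes were, and 0 passed 5% FDR. Their part in the Vwf values was not tested. Plgrkt, a plasminogen receptor, had 52.6, 76.5 and 96.7 in WT and 95.2, 106 and 182 in Nod2-/- mice, 6 of which exceeded every WT mouse (0.67 ± 0.20, adjusted p = 0.0867 in edgeR, 0.0312 in DESeq2 and 0.0497 in voom).

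Fgl1, a fibrinogen-like protein secreted by hepatocytes, had the largest fold change of the 53, with 662, 1907 and 11023 normalized counts in WT and 3654, 9714 and 33890 in Nod2-/- mice (log2 fold change 1.98 ± 0.72, adjusted p = 0.129). Its WT mice spread widely, with replicate 6 highest. Anxa2, the annexin that binds plasminogen on cell surfaces, had 192, 305 and 1235 in WT and 402, 818 and 1481 in Nod2-/- mice, and WT replicate 3 alone reached 1235. Its log2 fold change was 0.94 ± 0.43 (adjusted p = 0.213), and without WT replicate 3 it was 1.60 with an adjusted p of 0.0174. Anxa5, an anticoagulant annexin, had 773, 1161 and 1754 in WT and 1214, 1687 and 3730 in Nod2-/- mice (0.70 ± 0.26, adjusted p = 0.130, or 0.45 without Nod2-/- replicate 6, the highest mouse). Itgb2, the shared beta chain of the leukocyte receptors for complement, had 34.9, 53.8 and 117 in WT and 60.3, 75.3 and 302 in Nod2-/- mice, and its 0.77 ± 0.40 (adjusted p = 0.262) was 0.27 without Nod2-/- replicate 7. The 6 tested complement receptors had fold changes of 0.28 to 0.77, and 0 of them had an unadjusted p under 0.05, where 12.9% of all genes were higher. The summed level of the 8 listed receptors was 78.0 CPM in Nod2-/- replicate 7, which also held the most leukocyte markers, and 19.0 to 31.2 CPM in the other Nod2-/- mice against 17.1 to 30.9 in WT. Without that mouse C5ar1, a receptor for C5a, had -0.10 instead of 0.50. The bile duct and progenitor markers were 40.2 to 286 CPM in WT, with the 286 in replicate 3, and 147 to 549 CPM in Nod2-/- mice, and their part in the values of Anxa2 was not tested.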

How the data were processed

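Liver libraries of 6 WT and 7 Nod2-/- mice were prepared, per the labels, with a strand-specific kit for polyadenylated RNA (the study's methods speak of total RNA) and sequenced with paired ends. Per the submitters' processing notes and the study's methods, the authors used Trimmomatic 0.33 for trimming and TopHat2 2.1.1 for mapping to GRCm38, and they deposited raw read counts per gene, without normalization. The counting program, its strand setting and its treatment of reads with several matches are not given in the sources used here, so near copies (C4b and C4a, Kng1 and Kng2, C1ra and C1rb, C1s1 and C1s2) and overlapping genes (C8g and Fbxw5, Masp1 and Rtp4, Masp2 and Tardbp) are uncertain. Of the counts, 1 row without a gene name was left out. Names and positions were taken from GENCODE M21 for 53274 of 53465 genes.

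The counts were tested in R 4.3.3 with edgeR 4.0.16 (filterByExpr, TMM, glmQLFit and glmQLFTest, two-sided, no covariate), with Benjamini-Hochberg adjustment over 13545 genes at 5% FDR. These genes held 99.9% of counts. DESeq2 1.42.0 and voom with quality weights from limma 3.58.1 were run as alternatives on the same counts, the former because the authors had used it. Further alternatives were RLE normalization, other filters, removal of the 20 most abundant other genes, the replicate number as a factor, and leaving out mice. The edgeR, DESeq2 and voom fits were checked beforehand on simulated counts in which 200 genes carried known changes. That simulation gave every gene the same spread and held no outlying mice, so it does not cover how the fits behave with libraries like these. Levels per length (RPKM) used the union of exons. Pairs of genes were compared by permutation (100000 resamples within genotype). The lowest chi-square per degree of freedom between libraries of a genotype was 10.7 over 36 pairs, so none was counted as a repeat. The mice came from several cages and breeder pairs, but which mouse came from which is not given, so p-values measure the spread between these mice.

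The members and lists were chosen with earlier results of these data known. Named in full were members past 5% FDR, the 10 tested members with the largest absolute fold change, and C3, F2, Fga, Fgb, Fgg, Hc and Mbl2; of the other pathway genes, those past 5% FDR and the 6 with the largest absolute fold change. F5, C4bp, Cfi, C4b, C8b and Proc were added after their values were seen. Promoter windows came from RefSeq (GRCm38.p6), in which 32 members had an entry and 10 had none. Of the 4 motifs searched, 1 is not reported here.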

Additional observations from a re-analysis of the deposited data

Results flagged for a closer look

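Among the 84 groups of normalized counts examined (42 members in each genotype), 8 held a mouse whose gap to its nearest neighbour exceeded Dixon's 95% critical value. That value marks about 1 group in 20 by chance only where groups are independent and normally distributed. These counts were not log-transformed and the groups share mice, so the 8 cannot be set against that rate. Nod2-/- replicate 4 was the highest mouse of its group for 5 of them, with 164037 normalized counts of Fgb, 141075 of Fgg, 87001 of Kng1, 22293 of Cfi and 33.9 of Cfd. Nod2-/- replicate 7 stood apart for Plaur at 62.7 normalized counts. Among WT mice, replicate 6 stood apart for Pros1 at 1192 and replicate 3 for Plat at 68.7. The cause of these values was not tested.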

How the results depend on the processing

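In edgeR, 0 members passed 5% FDR under every other normalization, filter and left-out mouse, whereas DESeq2 called 2 higher (Cfp and Pros1) and 1 lower (F5). Of the other pathway genes, 0 passed in edgeR as reported, and as higher DESeq2 called 2, voom 3, edgeR without a filter on low counts 1, the replicate block 1 and the fit without both WT replicate 3 and Nod2-/- replicate 7 called 2. Leaving out single mice gave 0 to 4, with 4 without WT replicate 3. Over all genes tested, 697 of 13611 were called higher without WT replicate 3 and 408 of 13415 without both mice. The fit without a filter on low counts called 78 of 27602 higher, and the replicate block 17 of 13545. Vwf passed in 9 of 21 alternatives. Mbl2 changed sign, to -0.050 in voom, -0.12 with the replicate block and -0.15 without both mice, and ran from -0.06 to 0.27 when single mice were left out. Leaving out single mice moved r from -0.14 to 0.19 for C8a with C8g, from -0.067 to 0.33 for C8b with C8g and from -0.24 to 0.10 for Proc with Pros1. The genotypes share only replicate numbers: same-numbered mice correlated at -0.30 to 0.30, and 0 of 6 WT mice correlated best with their own number. With the replicate block, edgeR called 17 genes higher and 18 lower over all genes, against 88 and 69 without it, and DESeq2 called 605 and 549, voom 519 and 324, the fit without both mice 408 and 159, and that without WT replicate 3 697 and 459. Leaving out any other single mouse gave 20 to 116 higher and 20 to 107 lower. With the longest transcript as length, the 5 most abundant members held 50.6% of the summed RPKM. The causes were not tested. Depth limits Cfd, Plat and Plaur, which had few reads.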

Other observations

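Among 13 transcription factors known to drive liver genes, 1 passed 5% FDR as lower in Nod2-/- mice, where 0.509% of all genes tested did. It was Onecut1 (log2 fold change -1.44 ± 0.32 SE, adjusted p = 0.0422 in edgeR). With single mice left out Onecut1 did not pass in 10 of 13 fits (adjusted p up to 0.111). Hnf4a had -0.34 ± 0.10 (adjusted p = 0.0805) and Foxa1 -0.52 ± 0.18 (adjusted p = 0.117), and neither passed. Cebpa, Nr5a2 and Nr1h4 had 0.01, -0.04 and 0.10. The 13 ran from -1.44 to 0.55 with a median of -0.04, 6 of them above 0 and 7 below. At an unadjusted p under 0.05, 1 was higher and 4 were lower, where 12.9% and 10.2% of all genes tested were. Among those above 0, single mice left out gave 0.42 to 0.89 for Cebpd and 0.26 to 0.46 for Stat3. The same fits gave 0.21 to 0.36 for Foxa3 and 0.20 to 0.42 for Prox1.

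The acute phase list had a median log2 fold change of 1.06 over 15 genes. Nod2-/- replicates 7 and 4 were the highest mice for Saa2 and Lcn2. Saa2, a serum amyloid, had 4.04 ± 1.11 (adjusted p = 0.0712), Lcn2, an iron-binding lipocalin, 3.86 ± 1.08 (adjusted p = 0.0734), and without replicate 7 they had 2.70 and 2.43. Without WT replicate 3 Lcn2 had 4.46 (adjusted p = 0.0385). Hpx, the heme carrier hemopexin, had 1.06 ± 0.31 (adjusted p = 0.0775). Crp had 0.06 ± 0.17, and Hamp, the iron hormone hepcidin, was the single gene of the list below 0, at -1.20 ± 0.67. Of the 7 bile duct and progenitor markers, 5 were above 0 and 3 had an unadjusted p under 0.05, where 12.9% of all genes were higher. Of the 7, 1 passed 5% FDR, Sox9 (1.29 ± 0.25, adjusted p = 0.0324), where 0.650% of all genes tested were higher. Sox9 did not pass in 7 of 13 fits with single mice left out (adjusted p up to 0.0827). Cdh1 had 1.39, Spp1 1.30, Cldn7 0.44 and Epcam 0.24, and Krt7 and Krt19 had -0.05 and -0.40.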
